A study of Mus musculus with 16 samples.

Results

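Tuft cell genes were followed in GFP+ intestinal stem cells (ISCs) sorted from mice after vertical sleeve gastrectomy (VSG), in which most of the stomach is removed, or sham surgery. The set holds 33 of the 48440 genes listed for each segment, matched by gene symbol, and all 33 were found. It was put together with the VSG against sham values of these same libraries already in view, so those values count as having chosen the members. They are given below as a description, without a test of any single member. By role, 3 members are transcription factors, 8 belong to taste signalling, 5 to eicosanoid synthesis, 3 are cytokine and transmitter genes, 5 are structural and other markers, and 9 code for signalling proteins that blood cells also use.

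RNA-Seq had been done on 16 libraries from 7 female Lgr5-EGFP mice, which carry EGFP in the Lgr5 gene, so that the Lgr5 promoter drives the fluorescence used for sorting. The animals were 8 to 16 weeks of age as the methods give it, were kept on a high-fat diet for 16 weeks to induce obesity and were killed 4 weeks after surgery, when they had fasted overnight and then had a liquid meal 15 minutes earlier. The tissue was 6 cm per segment. From 6 of the mice, 4 with VSG and 2 with sham surgery, there was 1 duodenal and 1 jejunal library each, and 2 libraries per surgery came from ileum. Libraries of different segments that share a surgery and a replicate number are from 1 mouse, whereas a VSG and a sham library never are. Both surgeries share the genotype, diet, fast and meal. Cells positive for CD45, CD31, annexin V or Sytox Blue had been sorted out before the GFP+ cells were collected, and libraries that mapped poorly had been left out by the authors.

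Tuft cells are rare chemosensory cells of the gut epithelium, recognised by a tuft of long microvilli. Their fate depends on the transcription factor Pou2f3, and they sense luminal compounds through taste type receptors, G proteins, the phospholipase Plcb2, calcium release and the cation channel Trpm5. Once activated they release IL-25, acetylcholine and lipid mediators made from arachidonic acid, and they are best known in the small intestine for starting type 2 immune responses to worms and protists.

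Pou2f3 is a POU protein, a family that binds the DNA octamer ATGCAAAT. The promoters that hold these letters on either strand were looked for because Pou2f3 is itself a member. The RefSeq promoter table for GRCm38.p6 gives 300 bases per start site, 250 before and 50 after it, and has an entry for 29 members. The octamer was found in 3 of these 29 members, against 1.97% of all 27025 genes and 1.74% of all 32851 promoters in the table. Sucnr1 holds it 48 bases and Kctd12 160 bases upstream of the start, on the strand of the gene. For Hpgds it lies 174 bases upstream of the RefSeq start, but the GENCODE gene begins farther upstream and takes in 178 of the 250 bases, the octamer among them, so that stretch is not printed. A match is a description of letters and not a binding site. The 250 bases before the start of Sucnr1 and Kctd12 follow 5′ to 3′ on the strand of the gene, with the octamer in capitals. They lie at chr3:60081619-60081868 (plus strand) and chr14:102982638-102982887 (minus strand).
Sucnr1: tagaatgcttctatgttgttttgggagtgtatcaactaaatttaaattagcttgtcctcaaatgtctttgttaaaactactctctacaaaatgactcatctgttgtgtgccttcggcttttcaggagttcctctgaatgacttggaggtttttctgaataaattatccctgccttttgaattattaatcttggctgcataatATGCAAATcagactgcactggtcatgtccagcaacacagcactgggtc
Kctd12: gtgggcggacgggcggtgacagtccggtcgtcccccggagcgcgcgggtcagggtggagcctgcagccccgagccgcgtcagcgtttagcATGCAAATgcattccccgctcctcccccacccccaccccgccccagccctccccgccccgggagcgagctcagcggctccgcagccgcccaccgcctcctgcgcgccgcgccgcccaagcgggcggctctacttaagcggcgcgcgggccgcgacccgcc

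Values are normalized counts, that is reads per gene scaled between the libraries of 1 segment. The smallest step between values gave an implied depth of 33.7 to 63.6 M reads per library in the duodenum, 22.2 to 57.8 M in the jejunum and 10.9 to 36.4 M in the ileum. Members were listed at 0 unevenly, 1 to 6 of the 33 in duodenal libraries, 0 to 4 in 5 of the jejunal ones and 4 to 16 in those of the ileum. Sham replicate 1 of the jejunum stood apart, with 15 members at 0 and 13.02% of all genes with a mean above 50 listed at 0, against 1.65% to 6.70% in the other jejunal libraries. Lgr5 itself was at 0 in that library and at 497, 426, 1661 and 630.3 in the VSG libraries and 2053 in sham replicate 2. In the ileum Lgr5 had 672 and 420.4 after VSG and 0 and 152 after sham surgery. Fabp6, the ileal bile acid binding protein gene, had 196951 in VSG replicate 1 of the jejunum and 15.8 to 313 in the other jejunal libraries, against 29162 to 208801 in the ileum. It was chosen after its values were seen. The members' sums, medians and counts of calls in the jejunum are therefore also given without these libraries. A 0 can be an estimate that failed, so no fold is listed for a single member whose sham libraries are both at 0. The medians and the counts of higher members still include such members, as said below for the jejunum.

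**Figure D1:**
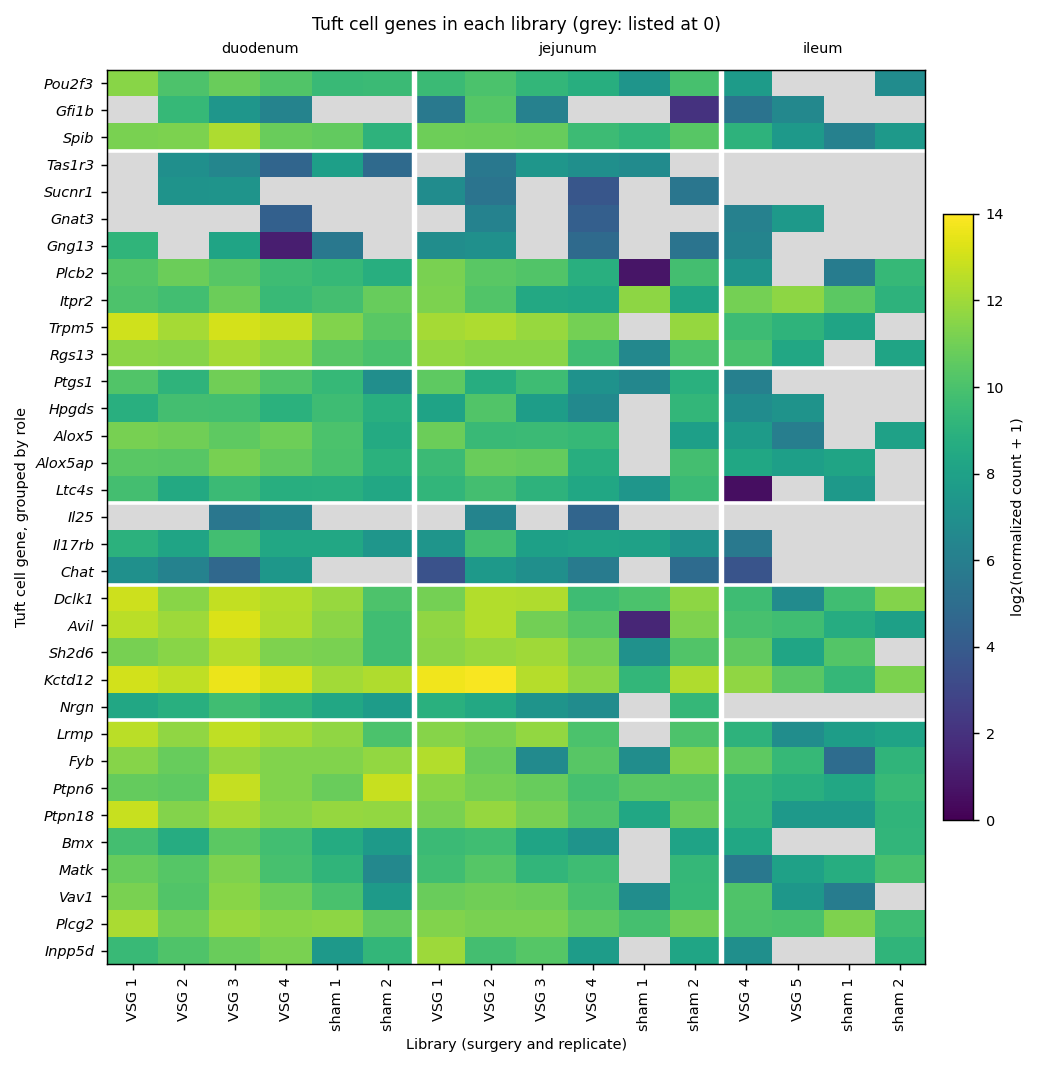
Heatmap of the 33 tuft cell genes (vertical axis, grouped by role) in the 16 libraries (horizontal axis, by segment and surgery). Colour gives log2(normalized count + 1), and grey cells are listed at 0: sham replicate 1 of the jejunum has 15 grey cells and the ileal libraries have 4 to 16.

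Summed over the 33 members, tuft cell genes took 1655, 1095, 2146 and 1380 ppm (parts per-million of the library total) in duodenal VSG replicates 1 to 4, against 823 and 699 after sham surgery. The groups did not overlap, and the ratio of their means was 2.06. In the jejunum the sums were 1972, 1974, 1338 and 669 ppm after VSG and 197 and 1028 after sham surgery. Jejunal VSG replicate 4 lay below sham replicate 2, so the groups overlapped, and the ratio of 2.43 became 1.45 without sham replicate 1, 2.17 without VSG replicate 1 and 7.55 without sham replicate 2. Ileal sums were 833 and 475 ppm in VSG replicates 4 and 5 and 366 and 557 in the sham replicates, which overlapped too, with a ratio of 1.42. In a bulk library, fewer tuft cells and less tuft RNA per cell cannot be told apart.

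**Figure D2:**
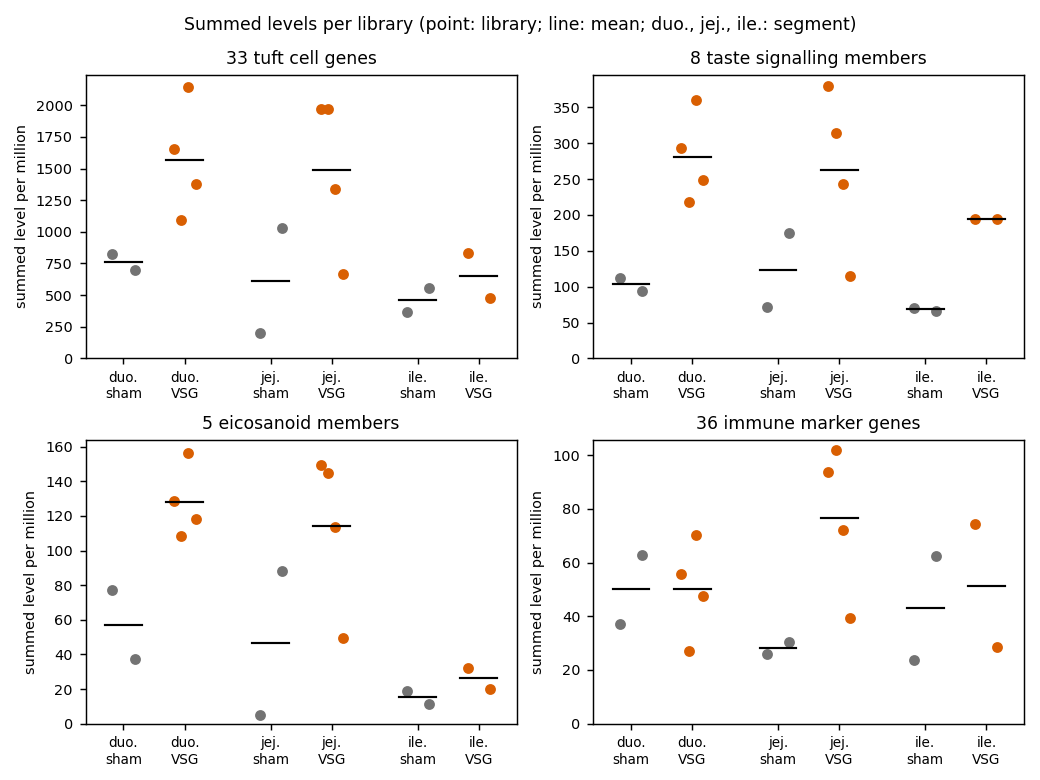
Summed level in ppm of the library total (vertical axis, from 0) for the 33 tuft cell genes, the 8 taste signalling members, the 5 eicosanoid members and 36 immune markers, by segment and surgery (horizontal axis). Points are libraries and lines are means. The taste sums of the VSG libraries, at 218 to 361 in the duodenum and 194 in both ileal libraries, lie above those of the sham libraries in these segments. In the ileum much of the sum is Itpr2. It gives 2183 of 4267 and 3180 of 4257 normalized counts after VSG and 1425 of 1767 and 522 of 1482 after sham surgery.

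Within each segment VSG was set against sham in limma, which fits every gene by a linear model and steadies its variance with that of the other genes. The fit used log2(normalized count + 1) of genes with a mean above 10. To be called, a gene needed a mean above 50, a fold change beyond 0.5 on the log2 scale, p below 0.05 and an adjusted p below 0.2. In the duodenum 32 members were tested, all but Gnat3, and 28 of them had a log2 fold change above 0 (50.7% of all genes tested did), with a median of 1.39 against 0.01 over all genes. Among the 28, Gfi1b, Sucnr1, Il25 and Chat had both sham libraries at 0 and could only come out higher. Limma called 0 of the 32 (0.0237% of all genes were called, 4 of 16867), while 18 had an unadjusted p under 0.05 and were higher (2.79% of all genes). For 15 members both sham libraries were below all VSG libraries (6.44% of all genes). Since this contrast chose the members, nothing is read from these shares. The median was 0.74 without sham replicate 2 and 1.81 without sham replicate 1. Each of these fits left 1 sham library, so nothing is read from which members limma called in them.

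All 3 transcription factors had a higher mean after VSG in the duodenum. Pou2f3 (ENSMUSG00000032015, mm10, as for all positions here, chromosome 9, 43123939 to 43210369, minus strand), the factor that sets tuft cell fate, had 2867, 1094, 1794 and 1192 normalized counts in VSG replicates 1 to 4 against 706 and 737 in sham replicates 1 and 2. No sham library reached the VSG range, and the log2 fold change was 1.16 ± 0.44 (± standard error, here and below). Spib (ENSMUSG00000008193, chromosome 7, 44525993 to 44532071, minus strand), an Ets factor known from B cells, M cells and tuft cells, had 2301, 2402, 5037 and 1751 after VSG and 1577 and 523 after sham surgery. These groups did not overlap either, although sham replicate 1 was close to VSG replicate 4, and the log2 fold change was 1.54 ± 0.52. Gfi1b (ENSMUSG00000026815, chromosome 2, 28609450 to 28621982, minus strand), a repressor of the Gfi family, had 0, 655, 163 and 76.3 after VSG and was listed at 0 in both sham libraries. Its 3 detected VSG libraries differed by several fold among themselves, and VSG replicate 1 was at 0 as well.

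Taste signalling members were read from receptor to channel. Tas1r3 (ENSMUSG00000029072, chromosome 4, 155859268 to 155863362, minus strand), a subunit of the sweet and umami receptors, had 0, 125, 84 and 22.6 in duodenal libraries after VSG and 238 and 27.3 after sham surgery (log2 fold change -1.88 ± 2.19). The succinate receptor gene Sucnr1 (ENSMUSG00000027762, chromosome 3, 60081869 to 60087566, plus strand) had 0, 148, 153 and 0 after VSG and was at 0 in both sham libraries. Both receptor genes were low, and neither separated the surgeries.

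Of the G protein genes, Gnat3 (ENSMUSG00000028777, chromosome 5, 17962549 to 18019834, plus strand), which codes for gustducin, was detected in 1 duodenal library only, at 18.5 in VSG replicate 4. Gng13 (ENSMUSG00000025739, chromosome 17, 25717171 to 25719406, plus strand), a gamma subunit that works with it, had 572, 0, 293 and 1.29 after VSG and 46.9 and 0 after sham surgery, and the groups overlapped. Downstream of them, Plcb2 (ENSMUSG00000040061, chromosome 2, 118707517 to 118728438, minus strand) had 1242, 1878, 1292 and 816 in the VSG libraries, against 673 and 433 after sham surgery. It separated the surgeries with a log2 fold change of 1.21 ± 0.44. Itpr2 (ENSMUSG00000030287, chromosome 6, 146108299 to 146502223, minus strand), an IP3 receptor that releases stored calcium, had 1077, 857, 1839 and 710.4 against 899.6 and 1741, with a log2 fold change of -0.26 ± 0.47 and full overlap.

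The channel gene Trpm5 (ENSMUSG00000009246, chromosome 7, 143069153 to 143094642, minus strand) stood at 8034, 4506, 8880.3 and 6961 normalized counts after VSG and 2605 and 1342 after sham surgery, that is 7095 ± 1897 (SD, n = 4) and 1973 ± 893 (SD, n = 2). The lowest VSG library stood well above the highest sham library (log2 fold change 1.88 ± 0.35). Rgs13 (ENSMUSG00000051079, chromosome 1, 144138654 to 144177372, minus strand), a regulator that shortens G protein signals, had the smallest standard error of the group, with 2989.8, 2804, 4364 and 3157 after VSG and 1325 and 996 after sham surgery at a log2 fold change of 1.51 ± 0.29. Of the 8 taste signalling members, 5 of the 7 tested were thus higher in the duodenum, and their sums ran from 218 to 361 ppm after VSG against 94.6 and 112 after sham surgery.

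All 5 eicosanoid members had a log2 fold change above 0 in the duodenum, and 2 of them separated the surgeries. On the leukotriene side, Alox5 (ENSMUSG00000025701, chromosome 6, 116410077 to 116461178, minus strand), the 5-lipoxygenase gene, had 2212, 1983, 1465 and 1948 in duodenal libraries after VSG and 1045 and 383 after sham surgery (log2 fold change 1.57 ± 0.43). Its activating protein gene Alox5ap (ENSMUSG00000060063, chromosome 5, 149264767 to 149288153, plus strand) had 1348, 1313, 2268 and 1521 against 1003 and 493 (log2 fold change 1.16 ± 0.41). Both separated the surgeries in every library. Ltc4s (ENSMUSG00000020377, chromosome 11, 50236461 to 50238616, minus strand), the leukotriene C4 synthase gene, had 915, 368, 741 and 437 after VSG and 459 and 336 after sham surgery, with overlap and a log2 fold change of 0.55 ± 0.57.

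On the prostaglandin side, Ptgs1 (ENSMUSG00000047250, chromosome 2, 36230426 to 36252272, plus strand), which codes for cyclooxygenase-1, had 1171, 555, 1989 and 1137 after VSG and 663 and 120.3 after sham surgery. VSG replicate 2 lay below sham replicate 1, so the groups overlapped at a log2 fold change of 1.96 ± 0.73. Hpgds (ENSMUSG00000029919, chromosome 6, 65117293 to 65144908, minus strand), the prostaglandin D synthase gene, had 449.6, 895, 866 and 488 against 815 and 453, and its log2 fold change was 0.08 ± 0.52. Summed, the 5 eicosanoid members took 108 to 156 ppm after VSG against 37.2 and 77.0 after sham surgery.

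Of the cytokine and transmitter members, Il25 and Chat were at 0 in part of the libraries. Il25 (ENSMUSG00000040770, chromosome 14, 54932695 to 54935837, plus strand), the alarm cytokine of tuft cells, had 0, 0, 46.4 and 77.9 in duodenal VSG replicates 1 to 4 and was at 0 in both sham libraries. Chat (ENSMUSG00000021919, chromosome 14, 32408203 to 32465989, minus strand), which codes for the enzyme that makes acetylcholine, had 129.5, 71.8, 25.1 and 168 after VSG and was likewise at 0 in both sham libraries. Chat was thus detected in all 4 VSG libraries and Il25 in 2 of them. Il17rb (ENSMUSG00000015966, chromosome 14, 29996135 to 30008896, minus strand), a subunit of the IL-25 receptor that tuft cells carry themselves, had 503, 292, 858 and 338 against 332 and 163 (log2 fold change 0.96 ± 0.69), and overlapped through VSG replicate 2 alone.

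All 5 structural and other markers had a log2 fold change above 0 in the duodenum. Avil (ENSMUSG00000025432, chromosome 10, 127000709 to 127020994, plus strand), which codes for the actin binding protein advillin, had 5905, 3958, 9433 and 5099.98 against 3002 and 823 (log2 fold change 1.88 ± 0.50). Kctd12 (ENSMUSG00000098557, chromosome 14, 102976581 to 102982637, minus strand), an accessory protein of GABA-B receptors, had 8298, 6538, 12149 and 8873 against 4245 and 5065 (log2 fold change 0.92 ± 0.27). Both separated the surgeries. So did Nrgn, a calmodulin binding protein gene, with 339.97, 452, 823 and 541 against 339 and 211, but only by the narrow gap between VSG replicate 1 and sham replicate 1. Dclk1 (ENSMUSG00000027797, chromosome 3, 55242364 to 55539068, plus strand), a microtubule associated kinase and the most used tuft marker, had 7695, 2866, 6784 and 5272 after VSG and 3698 and 1109 after sham surgery, and overlapped through VSG replicate 2. Sh2d6, an SH2 adaptor gene, had 2249, 2882, 5648 and 2461 against 2363 and 819.6, overlapped through VSG replicate 1 and had a log2 fold change of 1.15 ± 0.49.

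Members shared with blood cells were mixed. Matk, a kinase that restrains Src kinases, had 1685, 1267, 2547 and 965 after VSG and 578 and 90.7 after sham surgery (log2 fold change 2.72 ± 0.71). Vav1, a guanine nucleotide exchange factor, had 2324, 1154, 2945 and 1918 against 1000.1 and 199 (log2 fold change 2.14 ± 0.63). Together with Inpp5d, a lipid phosphatase, and Bmx, a Tec family kinase, they separated the surgeries. Inpp5d had 720.4, 1116, 1791 and 2349 against 184 and 625 (log2 fold change 1.99 ± 0.63), and Bmx had 897, 409, 1439.5 and 874 against 383 and 199 (log2 fold change 1.57 ± 0.61). Lrmp, a membrane protein gene of lymphoid cells, had 5996, 3282, 6402 and 4376 against 3288 and 1029 and overlapped narrowly through VSG replicate 2, at 1.40 ± 0.46. By contrast Ptpn6, the SHP-1 phosphatase gene, had 1663, 1493, 6913 and 2620.5 after VSG and 1786 and 7221 after sham surgery, a wide spread within each surgery. The adaptor gene Fyb had 2846, 1703, 3564 and 2649 against 2589 and 3349.7, and the phosphatase gene Ptpn18 had 7385, 2729, 4356 and 2974 against 3575 and 3439. Plcg2, a phospholipase shared with B cells, had 4764, 1905, 3637 and 2933 against 3167 and 1588. These 3 overlapped as well, with log2 fold changes of -0.18, 0.20 and 0.48.

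**Figure D3:**
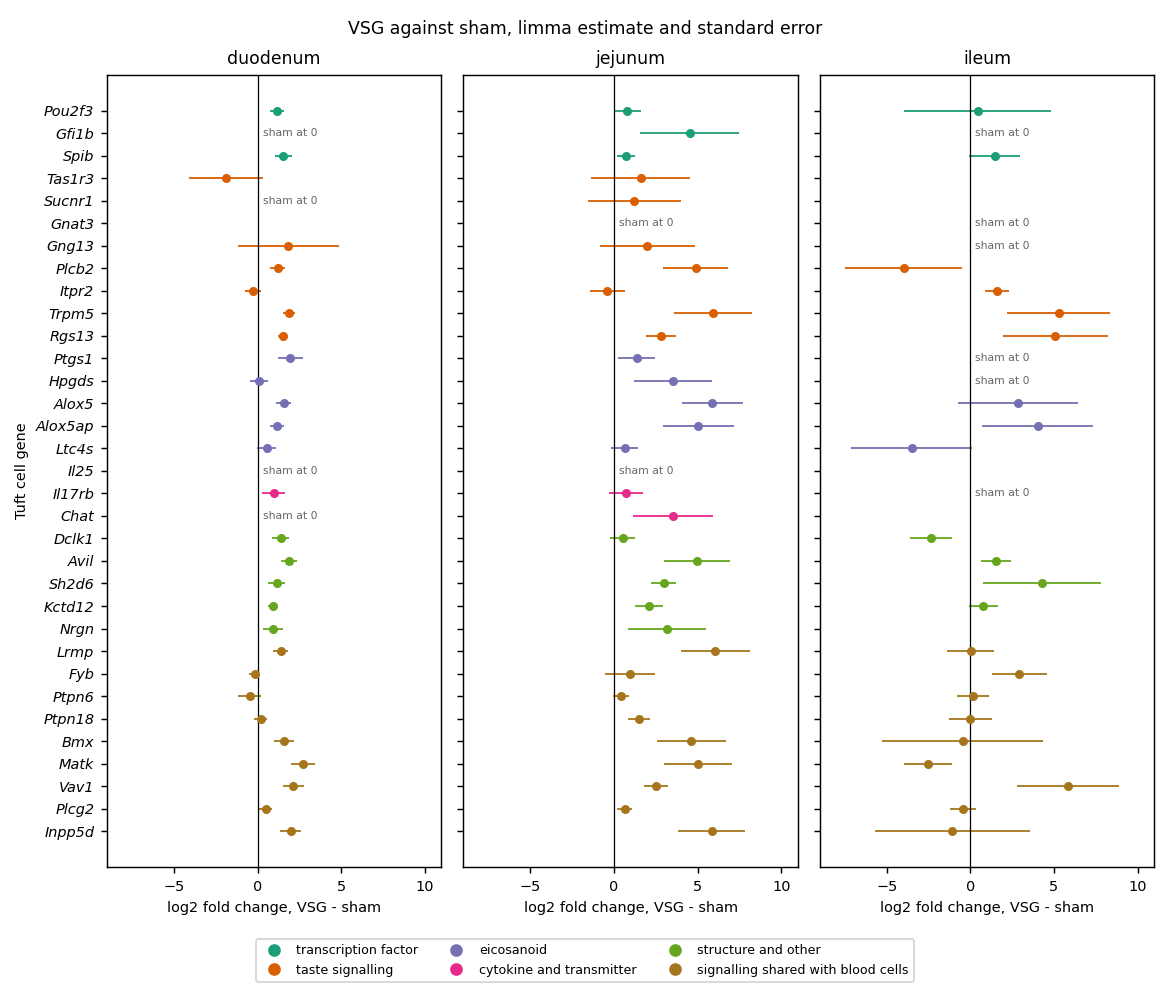
Log2 fold change of VSG against sham (horizontal axis, on the log2(normalized count + 1) scale, point and standard error from limma) for each tuft cell gene tested (vertical axis, coloured by role), by segment. Members with both sham libraries at 0 have no point; standard errors are mostly below 1 in the duodenum and reach beyond 3 in the ileum.

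In the jejunum all 33 members were tested and 32 had a log2 fold change above 0 (55.0% of all genes did), with a median of 2.60 against 0.11 over all genes. Among the 32, Gnat3 and Il25 had both sham libraries at 0 and could only come out higher. The median was the value of Gnat3 itself, so it is a fold against 0 that depends on the pseudocount. With a pseudocount of 10 the median was 1.58. Limma called 0 members (0.0126% of all genes, 2 of 15857), with 13 higher at an unadjusted p under 0.05 (3.63% of all genes). Only Alox5, Sh2d6 and Vav1 had every VSG library above both sham libraries (6.59% of all genes). The size of the jejunal difference depended on which sham library was kept. Without sham replicate 1 the median was 0.37, 25 of 33 members were higher (48.9% of all genes), 2 of them at an unadjusted p under 0.05 (2.47% of all genes), and limma called 0 members. Without sham replicate 2 the median was 3.98, against 0.33 over all genes. That median was the value of Sucnr1, which is at 0 in sham replicate 1, the only sham library left. Without VSG replicate 1, the library with high Fabp6, the median was 2.84, 32 members were higher, 5 of them at an unadjusted p under 0.05 (3.28% of all genes), and limma called 0.

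Trpm5 shows the pattern. It had 4369, 5046, 3706 and 2118 normalized counts in jejunal VSG replicates 1 to 4, was listed at 0 in sham replicate 1 and had 3543 in sham replicate 2, which is within the VSG range. Avil, with 3289.9, 5418, 2042 and 1276 after VSG and 1.84 and 2474 after sham surgery, and Plcb2, with 2309, 1379.9, 1167 and 463 against 0.711 and 888, followed it. Rgs13 had 3407, 2921, 2964 and 825 after VSG and 93.4 and 1063 after sham surgery, with sham replicate 2 between VSG replicate 4 and the other VSG libraries. Sham replicate 1 was at or near 0 for Trpm5, Avil and Plcb2, and low but detected for Rgs13. In all of these genes sham replicate 2 was higher, and VSG replicate 4 was the lowest VSG library.

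Transcription factors had the lowest median of the 6 roles in the jejunum, a log2 fold change of 0.80. Without sham replicate 1 this ranking did not hold. Their median was then 0.18, against 0.08 for structural and other members and 0.14 for eicosanoid members. The remaining roles were at 0.49 to 1.14. Pou2f3 had 746, 1060.4, 608 and 431 after VSG and 156 and 955 after sham surgery, or a log2 fold change of 0.80 ± 0.81 that fell below 0 without sham replicate 1. Spib had 1894, 1861, 1739.6 and 760.4 against 595 and 1294 (log2 fold change 0.74 ± 0.54). Gfi1b was carried by VSG replicate 2, with 49.5, 1280.03, 71.1 and 0 after VSG and 0 and 3.11 after sham surgery.

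Among the remaining taste signalling genes of the jejunum, Itpr2 had 2411, 1186, 351 and 307 after VSG and 3168 and 301 after sham surgery and was the only member below 0, at -0.39 ± 1.06. Its highest jejunal value was in sham replicate 1, where most members had their lowest. Tas1r3 had 0, 47.1, 166 and 125 against 108 and 0, Sucnr1 112, 40.6, 0 and 12.3 against 0 and 45, and Gng13 116, 128, 0 and 28.1 against 0 and 40.7. Gnat3 had 0, 71.5, 0 and 17.6 and was at 0 in both sham libraries. These 4 genes overlapped between the surgeries.

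For the eicosanoid genes, Alox5 had 1875, 729.5, 733 and 677 in jejunal libraries after VSG and 0 and 238 after sham surgery, and its separation did not depend on sham replicate 1 since sham replicate 2 also lay below every VSG library. Alox5ap had 759, 1779, 1636 and 431 against 0 and 896, and sham replicate 2 fell between VSG replicates 1 and 3. Ptgs1 had 1494, 425, 791 and 142 against 86.7 and 464. Hpgds had 273, 1165, 219.5 and 98.3 against 0 and 617, and Ltc4s had 600.2, 894, 527 and 317 against 162 and 749. Both, with sham replicate 2 above 3 of the 4 VSG libraries, had log2 fold changes of 3.54 ± 2.32 and 0.65 ± 0.82, in that order, and these turned negative without sham replicate 1.

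Among the structural members of the jejunum, Sh2d6 had 3021, 3614, 4128 and 2118 after VSG and 134 and 1184 after sham surgery, and both sham libraries were below every VSG library, as for Alox5. Kctd12 had 13185, 15105, 5663 and 3162 against 609 and 5244, and Nrgn had 471, 349, 153 and 109.9 against 0 and 642. In both genes sham replicate 2 lay within the VSG range or above it. Dclk1, with 2177, 5280.4, 5122 and 815 against 1042 and 3163, did not separate the surgeries, and its log2 fold change was 0.54 ± 0.75. Of the signals, Il25 was detected in VSG replicates 2 and 4 alone, with 0, 77.2, 0 and 22.3 after VSG, Chat had 10.6, 190.2, 125 and 55.6 against 0 and 28.6, and Il17rb had 158, 859, 251 and 279.7 against 256 and 142. All 3 overlapped between the surgeries.

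Of the members shared with blood cells, Vav1 had 1798, 1971, 1828 and 961 after VSG and 114 and 654 after sham surgery and was the 1 of the 9 that separated the surgeries in the jejunum. Lrmp had 2845, 2341, 3379.6 and 1062 against 0 and 1104, and Matk had 820.4, 1255, 588 and 791 against 0 and 649. Bmx, with 755, 849.99, 286 and 152 against 0 and 277, and Inpp5d, with 3986, 898, 1277 and 211 against 0 and 295, were likewise at 0 in sham replicate 1 and within the VSG range in sham replicate 2. Plcg2 had 2561, 2323, 2348 and 1502 against 940.4 and 1989.9, and Ptpn18 had 2321, 3563, 2222 and 1116 against 322 and 1757. Ptpn6, with 2894, 2160.2, 1723 and 931 against 1372 and 1264, differed little between the sham libraries, so that sham replicate 1 was not low for every member. Fyb had 5286, 1777, 105 and 1321 against 115 and 2679, with its lowest value in a VSG library.

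The difference between segments was tested on each mouse's jejunal minus duodenal log2 value, VSG against sham. Of 32 members 0 were called by limma or had an unadjusted p under 0.05, against 4.23% of the 14718 genes tested. The largest differences were those of Lrmp, at 4.66 ± 3.20, Alox5, at 4.31 ± 2.58, and Trpm5, at 4.05 ± 3.41, all on the log2 scale and all with sham replicate 1 of the jejunum at 0. With sham mouse 1 or VSG mouse 1 left out limma again called 0 members and 0 genes. Without sham mouse 2 it called 11 members and 5.40% of all genes, 795 of 14718.

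The ileum had 2 libraries per surgery. Tas1r3, Sucnr1, Il25 and Nrgn were at 0 in all 4 libraries and Chat was detected only at 11.5 in VSG replicate 4, which left 28 members to test. Of these 20 were higher (57.0% of all genes), with a median log2 fold change of 1.56 against 0.24 over all genes. Among the 20, Gfi1b, Gnat3, Gng13, Ptgs1, Hpgds and Il17rb had both sham libraries at 0. They passed the filter through VSG libraries alone, so their direction was fixed in advance. Limma called 0 (0% of all genes, 0 of 13853), and 0 were higher at an unadjusted p under 0.05 (2.09% of all genes). Both VSG libraries lay above both sham libraries for 9 members (17.0% of all genes) and below them for 2, Dclk1 and Matk (11.6% of all genes). The median was 0.70 without VSG replicate 4 and 3.60 without VSG replicate 5.

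Trpm5 had 785 and 552 in ileal VSG replicates 4 and 5 and 285 and 0 in the sham replicates, and Avil had 976 and 834 against 402 and 246. Rgs13 had 999 and 338 after VSG and 0 and 293 after sham surgery. All 3 genes had both VSG libraries above both sham libraries, although the lower VSG value of Rgs13 was close to sham replicate 2. Dclk1 went the other way, with 795 and 109 after VSG and 832 and 2747 after sham surgery, as did Matk, with 46.8 and 255 against 423 and 989.6. Plcb2 had the lowest log2 fold change of the members tested, -3.99 ± 3.49. It had 152 and 0 after VSG and 57.1 and 667 after sham surgery, with overlap. Pou2f3 had 206 and 0 against 0 and 112, detected in 1 library of each surgery. Gnat3 and Hpgds were detected in both VSG libraries, at 70.1 and 187 and at 111 and 143, and in neither sham library. Itpr2, with 2183 and 3179.8 after VSG and 1425 and 522 after sham surgery, was higher in both VSG libraries. The remaining 3 members without overlap in that direction were Gfi1b, with 39.8 and 92 against 0 and 0, Fyb, with 1476 and 674 against 29.3 and 561, and Vav1, with 1116 and 171 against 57.7 and 0. Of the leukotriene genes, Alox5 had 208 and 62.6 against 0 and 258, and Alox5ap had 323 and 236 against 285 and 0. Each was detected in both VSG libraries and in 1 sham library. Ltc4s was carried by 1 sham library, with 0.459 and 0 against 187 and 0, and Ptgs1, Gng13 and Il17rb were each detected in VSG replicate 4 alone, at 66.5, 79.2 and 49.0.

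Across segments, levels were compared as shares of the library total, since each segment had been normalized separately. The mean share was lowest in the ileum for 30 of the 33 members, which was also so for 59.3% of 14718 genes. Trpm5 had a mean of 113 ppm in the duodenum (SD 65.9, n = 6), 92.1 in the jejunum (SD 53.3, n = 6) and 18.1 in the ileum (SD 15.6, n = 4), over both surgeries. These SDs hold both surgeries and leave aside that duodenal and jejunal libraries share mice, so no likeness of these segments is read from them. The ileal means hold 2 VSG and 2 sham libraries, whereas those of the other segments hold 4 and 2. Pou2f3 had 29.4, 19.2 and 3.59 ppm in the same order, and Alox5 31.6, 20.9 and 5.95. Itpr2 ran the other way, with 24.8, 33.7 and 81.0 ppm, and Gnat3 was higher in the ileum as well, at 2.93 against 0.0656 and 0.432. Plcg2 was nearly level, at 62.5, 55.9 and 58.0.

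Levels of different members can be compared only per length. In the duodenum the normalized counts per kb of exon were highest for Sh2d6 (1620), Rgs13 (1575), Avil (1384), Ptpn6 (1291) and Kctd12 (1243), with Trpm5 at 842 and Dclk1 at 299. The 5 lowest members were Sucnr1 at 30.6, Tas1r3 at 23.5, Il25 at 19.5, Chat at 13.98 and Gnat3 at 2.26. In the jejunum Sh2d6 (1400), Kctd12 (1182) and Rgs13 (1135) led, and in the ileum Sh2d6 (446), Kctd12 (319) and Plcg2 (315). Values per kb are set side by side within a segment only.

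How members varied together was described over the 12 duodenal and jejunal libraries, which come from 6 mice and are the libraries whose VSG and sham values chose the members. Pearson's r was taken on log2 values centred within each segment, over the 12337 genes, 30 members among them, with a mean above 50 in both segments. The mean r between pairs of members was 0.536, against 0.00986 between all genes. It was 0.454 without sham replicate 1 of the jejunum and 0.531 without VSG replicate 1. Set against the mean of 5 reference members (Trpm5, Dclk1, Avil, Sh2d6 and Pou2f3), the other 25 members had a median r of 0.881, and 20 of them were above 0.5, as were 23.2% of all genes. Without sham replicate 1 of the jejunum the median was 0.70. These values still hold the difference between the surgeries. With the mean of each surgery removed in each segment, the mean r between members was 0.474 (0.0102 between all genes), and 0.401 (0.00329) when sham replicate 1 of the jejunum was left out as well.

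Bmx (0.961), Matk (0.954), Rgs13 (0.952), Alox5ap (0.943) and Lrmp (0.941) had the highest r with the reference. At the low end stood Itpr2 (-0.417), Tas1r3 (-0.323), Ptpn6 (0.0841), Il17rb (0.381) and Fyb (0.47). Without sham replicate 1 of the jejunum Itpr2 had 0.195 and Fyb -0.0222, while Il17rb had 0.70 and Spib went from 0.778 to 0.924. Itpr2, Tas1r3, Ptpn6 and Fyb were also the 4 members that were not higher after VSG in the duodenum.

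**Figure D4:**
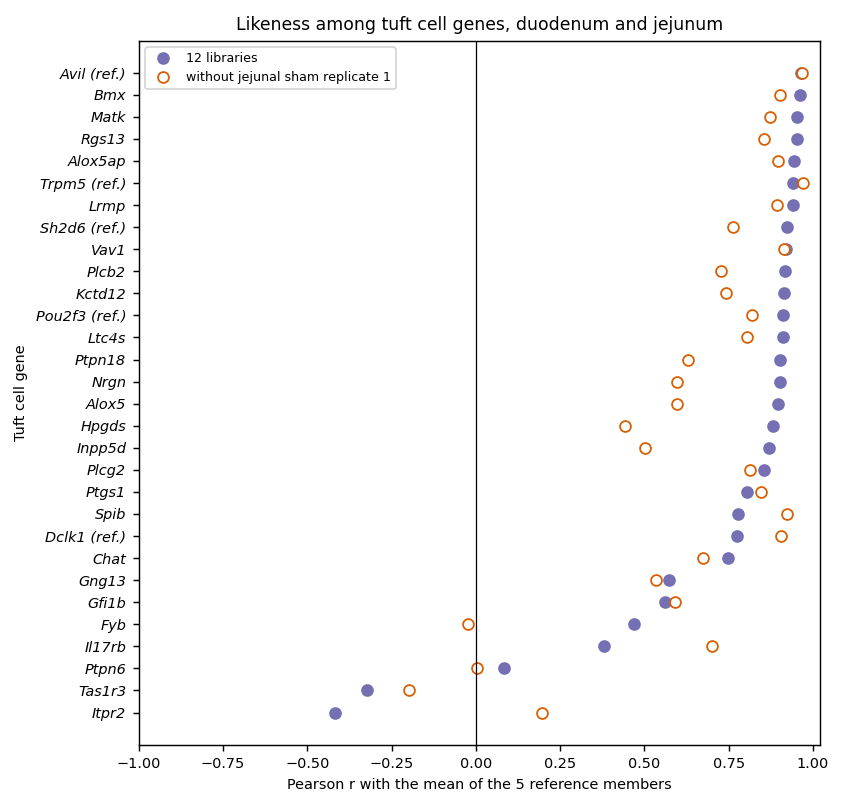
Pearson's r (horizontal axis) of 30 tuft cell genes (vertical axis, the 5 reference genes marked) with the mean of the 5 reference genes, over 12 duodenal and jejunal libraries (filled) and over 11 libraries without sham replicate 1 of the jejunum (open). Most members lie above 0.5 in both, and Itpr2, Tas1r3 and Ptpn6 lie near or below 0.2 in both.

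Outside the members, the 10 genes most like the reference, among genes with a mean above 50 in both segments, included Pik3cg (0.976), Neurl1a (0.973), Strip2 (0.972), Hepacam2 (0.97), Rac2 (0.96), Krt23 (0.958), Cd24a (0.954), Pik3r5 (0.953) and Cd300lf (0.952). Pik3cg, the catalytic subunit of PI3-kinase gamma, had 1517, 385, 4677 and 1254 in duodenal libraries after VSG and 437 and 89.1 after sham surgery, and Pik3r5, its regulatory subunit, had 3212, 2067, 4915 and 3833 against 1592 and 738. In the jejunum Pik3r5 had 2226, 2749, 2827 and 1182 after VSG and 2.29 and 1321 after sham surgery, with sham replicate 1 near 0 as for many members. Strip2, with 2847, 1897, 2566 and 1818 against 802 and 488 in the duodenum, had no overlap between the surgeries.

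Other tuft genes were taken from 4 pathway lists and 1 list of markers, 78 genes in all. In the duodenum 62 were tested and 40 were higher, with a median log2 fold change of 0.27, 0 called by limma, and 11 higher and 4 lower at an unadjusted p under 0.05. In the jejunum 36 of 59 were higher (median 0.36), with 0 called and 7 higher and 1 lower at that level. In the ileum 33 of 57 were higher (median 0.20), with 0 called and 1 higher and 1 lower. The marker list held most of these, with 8 higher and 0 lower of 28 tested in the duodenum at an unadjusted p under 0.05 and 7 higher and 0 lower of 28 in the jejunum. Without sham replicate 1 of the jejunum 32 of 59 were higher there (median 0.07), with 2 higher and 1 lower at that level, and without VSG replicate 1 it was 38 of 59 (median 0.32), with 8 higher and 2 lower.

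Eicosanoid genes outside the members were split. Of 9 tested in the duodenum 4 were higher and 5 lower (median -0.19), and of 8 in the jejunum 1 was higher and 7 lower (median -0.47). Ggt1, a gamma-glutamyltransferase of the brush border, had 5077, 7204, 8810.3 and 9391 in duodenal libraries after VSG and 28634 and 14234 after sham surgery, or a log2 fold change of -1.44 ± 0.34 (adjusted p = 0.434 from limma). Both sham libraries were above all 4 VSG libraries. Lta4h, the leukotriene A4 hydrolase gene, had 6873, 9481, 9958 and 8979 against 11696 and 10791. The transcription list had 9 of 11 higher in the duodenum (median 0.49) and 8 of 11 in the jejunum (median 1.18), the taste list 4 of 7 and 4 of 7, and the type 2 cytokine and transmitter list 3 of 7 and 2 of 5. Without sham replicate 1 of the jejunum the transcription list had 7 of 11 higher there, and its median was 0.11. Il4ra, the receptor subunit through which IL-4 and IL-13 act on epithelium, had 2842, 2198, 3236 and 3924 after VSG and 1622 and 956 after sham surgery in the duodenum, with every VSG library above both sham libraries.

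Immune markers were followed because 9 members are also blood cell genes and CD45+ cells had been sorted out. Of 36 immune markers, 23 to 29 were at 0 in each duodenal library and 24 to 32 in each jejunal library. Cd79a of B cells and Cpa3 of mast cells were at 0 in all 16 libraries, and Cd3e of T cells in all but VSG replicate 4 of the jejunum, where it had 21.7. Other B and plasma cell genes were detected in the duodenum. That list summed to 0.555 to 4.00 ppm after VSG and to 0 and 4.14 after sham surgery. Ptprc, which codes for CD45, had 276, 114, 1534 and 87 in duodenal libraries after VSG and 22 and 28.1 after sham surgery, and 538, 196, 259.6 and 60.3 against 0 and 106 in the jejunum, with an r of 0.917 with the tuft reference (0.80 without sham replicate 1 of the jejunum). It was higher in all 4 duodenal VSG libraries than in both sham libraries. Summed over the 36 markers, duodenal levels ran from 27.2 to 70.1 ppm after VSG against 37.0 and 62.9 after sham surgery, and jejunal levels from 39.4 to 102 against 25.8 and 30.2. The largest part in the jejunal VSG libraries was the mast cell list, most of it Kit. It ran from 23.7 to 87.8 ppm after VSG against 11.8 and 21.2 after sham surgery. The T cell, B cell and macrophage lists each overlapped between the surgeries there. Kit, a mast cell marker that is also found outside mast cells, had 1606, 641, 1193 and 1355 against 1337 and 2620.1 in the duodenum and 2264, 3014, 1797 and 696 against 555 and 631 in the jejunum. Cd68 of macrophages had 326, 276, 92.3 and 54.1 against 104 and 25.1 in the duodenum. Of the 11 markers tested in the duodenum 8 were higher, and in the jejunum 5 of 9, or 6 of 9 without sham replicate 1 or without VSG replicate 1. The part of immune cells in the changes of the members was not tested.

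Lists of other lineages were counted beside the members, and limma called 0 of their genes. Of 10 enterocyte genes 10 were lower after VSG in the duodenum (median -1.33) and 10 in the jejunum (median -1.62), of which 7 and 4 had an unadjusted p under 0.05. Their sums in the duodenum were 6512 to 13262 ppm after VSG against 14980 and 20696 after sham surgery, and in the jejunum 15485, 27154, 15168 and 17396 ppm against 46260.4 and 24354, which overlapped. All 8 goblet cell genes were higher in both segments, with medians of 0.63 and 1.40, 2 and 5 of them at an unadjusted p under 0.05. Stem cell genes were higher in 7 of 9 and 8 of 9 cases, 0 of them at that level. Paneth cell genes were higher in 7 of 8 cases in both segments (medians 0.10 and 0.76), and enteroendocrine genes in 9 of 11 and 7 of 11 (medians 0.21 and 0.32). With jejunal sham replicate 1 left out, 1 of 8 Paneth cell genes (median -0.51) and 3 of 11 enteroendocrine genes (median -0.42) were higher in the jejunum. Without sham replicate 1 of the jejunum 9 of 10 enterocyte genes were lower there (median -0.92), 8 of 8 goblet cell genes were higher (median 0.59) and 2 of 9 stem cell genes were higher (median -0.15). Without VSG replicate 1 these were 10 lower (median -1.18), 8 higher (median 1.32) and 8 of 9 higher (median 1.00). Lgr5 had 6565, 2638, 2169 and 892 in duodenal libraries after VSG and 1082 and 884 after sham surgery, with an r of 0.873 with the tuft reference that was 0.376 without sham replicate 1 of the jejunum. The part of these lists in the level of tuft cell genes was not tested. Scaling each library to the same total raised the median log2 fold change of all genes from 0.11 to 0.34 in the jejunum and from 0.24 to 0.35 in the ileum, and 32 and 21 members were then higher.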

How the data were processed

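The authors aligned the reads to mm10, quantified genes and deposited, for each segment, normalized counts per library (signal values scaled between libraries with DESeq2 size factors). Per the submitters' processing notes STAR 2.5.3a, Salmon 0.6.0 and DESeq2 were used. The authors left out libraries that mapped poorly. The deposited tables also hold the authors' own means, fold changes, standard errors, statistics and p-values, which were not used, and 0 per-library columns belonged to no sample. Of the values, 38.0% to 49.0% per library were within 0.01 of a whole multiple of the smallest step, so whole reads were not recovered and no count model was run. Of 48440 identifiers 48058 matched the GENCODE annotation.

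Values were taken as log2(value + 1) over genes with a mean above 10, which understates changes of low genes. Each segment was fitted on its own in limma 3.58.1 (R 4.3.3) with a variance trend and Benjamini-Hochberg adjustment over all genes tested, and calls needed p below 0.05, adjusted p below 0.2, a log2 fold change beyond 0.5 and a mean above 50. Tested on simulated data with known changes, this fit recovered part of them at best. Shares in ppm used the library total, and lengths were merged exons. Counting precision follows depth, which was known only as implied reads. Python 3.11.15, numpy 2.4.6, pandas 2.3.3 and matplotlib 3.10.9 were used for tables and plots. The members and all lists were chosen with earlier results of these data known. All members could be named, with defining immune markers, Lgr5, the listed pathway genes of highest level, and the 10 genes most like the reference, of which 1 is not reported here. A number shared by a VSG and a sham library does not mark 1 animal, and such libraries' deviations from the group means did not correlate (r from -0.0489 to 0.0543 over 4 pairs), so the numbers were not used as pairs. Alternatives changed the pseudocount, filter, scaling, trend, threshold, replicate block and library left out.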

Additional observations from a re-analysis of the deposited data

Results flagged for a closer look

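Single libraries that lay far from the other 3 of their group, by Dixon's test, were found in 4 of 65 groups examined, and chance gives about 1 in 20. All 4 were in the jejunal VSG libraries. VSG replicate 4 was low for Spib, at 760.4 normalized counts with the nearest library at 1740.0, for Rgs13, at 825.5 with the nearest at 2921.0, and for Vav1, at 961.2 with the nearest at 1798.0. VSG replicate 1, the library with high Fabp6, was high for Alox5, at 1875.0 with the nearest at 732.6. The cause was not tested.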

How the results depend on the processing

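The number of tuft cell genes with a log2 fold change above 0 stayed within 27 to 29 in the duodenum, 29 to 32 in the jejunum and 16 to 21 in the ileum when the pseudocount, filter, scaling or replicate block was changed. In that order of segments, 24 of 32, 23 of 33 and 17 of 28 members kept their sign in every alternative, leaving out libraries included. Some of these had both sham libraries at 0, so that changing the pseudocount or leaving out a library could not make them negative. They were Gfi1b, Sucnr1 and Chat in the duodenum, Gnat3 and Il25 in the jejunum, and Gfi1b, Gnat3, Gng13, Ptgs1, Hpgds and Il17rb in the ileum. For them a kept sign shows nothing. The number of all genes called in the duodenum, 4, was 0 with a pseudocount of 0.5, no filter, a mean above 50, the same total, or an adjusted p under 0.05, was 10 with a pseudocount of 10 and 43 without the trend, and ran from 0 to 259 with 1 library left out (259 without sham replicate 1). In the jejunum the 2 called genes became 61 without the trend and 1 at an adjusted p under 0.05, and 1 to 2710 with 1 library left out (2710 without sham replicate 2). In the ileum 0 became 3 with a pseudocount of 10, 463 without the trend, and 0 to 631 with 1 library left out (631 without VSG replicate 5 and 625 without VSG replicate 4).

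Members called, 0 in each segment, became 1 in the duodenum (Chat) and 2 in the ileum (Gnat3 and Hpgds) without the trend, and ran from 0 to 7 in the duodenum, 0 to 19 in the jejunum and 0 to 1 in the ileum with 1 library left out. The difference between jejunum and duodenum, with 0 genes called, had 4 without the trend and 0 to 795 with 1 mouse left out, of which 0 to 11 were members, the highest counts being those without sham replicate 2. Without the trend limma called 0.255% of all genes in the duodenum and 3.34% in the ileum. Chat in the duodenum, and Gnat3 and Hpgds in the ileum, had both sham libraries at 0 and could only come out higher. Nothing is read from these member calls. Where 1 library was left in a group, it was assumed to vary like the others, so nothing is read from the member counts of those fits either. The members' median log2 fold change ran from 0.74 to 1.81 in the duodenum and from 0.37 to 3.98 in the jejunum with 1 library left out, and in the jejunum was 1.58 with a pseudocount of 10 and 2.01 after quantile normalization, while in the ileum that scaling gave 0.44. With members whose sham libraries were both at 0 set to 3 reads there, an alternative chosen after seeing the data, the medians were 1.30, 2.11 and 0.71. The jejunal ratio of summed members ran from 1.45 to 7.55, and the mean r between members was 0.531 without VSG replicate 1 and 0.454 without sham replicate 1 of the jejunum and 0.474 with the surgery means removed, both also chosen after seeing the data. With the replicate block, limma called 0 genes in the duodenum and 0 in the jejunum, at member medians of 1.24 and 3.11. For the ileum no paired analysis was possible because ileal VSG and sham libraries share no replicate number. The causes were not tested, and p-values rest on 2 sham mice per segment.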
